A study of Mus musculus with 6 samples.

Results

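Leukotriene and prostaglandin enzymes were followed in liver RNA of 3 sphingosine-1-phosphate (S1P) lyase knockout (KO) mice and 3 wild-type (WT) mice, hybridised to 1 Affymetrix mouse expression array per animal. Every probe set annotated to exactly 1 gene symbol was taken where that symbol was one of 10 names: Alox5, Alox5ap, Lta4h, Ltc4s, Ptgs1, Ptgs2, Ptges, Ptgds, Hpgd and Ptgr1. This gave 16 probe sets of 9 genes, among 45101 probe sets and 18193 genes with a single symbol in the whole table. Ptgs1, the constitutive cyclooxygenase, was not analysed here. S1P lyase, the product of Sgpl1, breaks down S1P, a signalling lipid. Both groups had a mixed C57BL6 and 129sv background and no treatment, and the labels used here give no age, sex, litter or batch. The labels describe the KO animals by genotype alone, with no promoter or cell type that would limit the deletion. The 3 arrays per group limit the precision of every value, and a p-value sets a difference against the spread between arrays. With 1 array per mouse, spread between animals and spread from RNA handling cannot be told apart.

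Leukotrienes and prostaglandins are signalling lipids made from arachidonate, a fatty acid that phospholipases and other hydrolases release from cell lipids. Leukotriene synthesis is largely a property of myeloid cells, in which 5-lipoxygenase (Alox5) and its membrane partner (Alox5ap) oxidise arachidonate to leukotriene A4. Lta4h then makes leukotriene B4, which attracts neutrophils, and Ltc4s makes leukotriene C4. Prostaglandin synthesis starts with the cyclooxygenases, goes on through terminal synthases such as Ptges and Ptgds, and is ended by Hpgd and Ptgr1. The liver is a major site at which circulating eicosanoids are taken up and inactivated.

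Values are log2 signals as deposited, and a difference is KO minus WT. Probe sets with a mean under 3.58 log2, the 40th percentile of the array, were not tested in the main fits, because so dim a signal may be background alone. A gene was read by its brightest tested probe set and called where its limma adjusted p, over 13370 genes, was under 0.05. Only called genes are said to have risen or fallen. Over all genes 18.6% were called, 10.5% as higher and 8.09% as lower in KO, and KO and WT values did not overlap in 40.8%. Sgpl1 itself read 2.46, 2.99 and 2.87 log2 in the KO arrays and 6.65, 6.90 and 6.71 in the WT arrays, which fits the labels. The liver's own transcripts were bright in both groups, with Alb at 14.28 log2 in KO and 14.32 in WT.

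The scale of these arrays bears on every small difference. The bacterial poly-A controls, added before labelling, were brighter in KO by 0.75 log2, and the 3' minus 5' signal was higher by 0.45 in Actb, 0.47 in Gapdh and 1.01 in Pcx. Each of these measures was higher in every KO array than in any WT array (p = 0.1 by a two-sided exact permutation test, which cannot go lower with 3 arrays a group). Their part in the results was not tested. With arrays centred on the poly-A controls the median difference over all genes was -0.80 log2, with 377 genes called higher and 10120 lower in place of 1400 and 1082. On this poly-A scale the controls' own spread (SD 0.28 in KO and 0.05 in WT) enters every gene alike. The SE there was 0.24 to 0.25 for each enzyme gene tested. Calls on that scale are thus not independent between genes and do not measure a gene's own spread. With arrays centred on hepatocyte markers the median was 0.11, with 2229 higher and 536 lower, and with arrays centred on their median 1475 were higher and 904 lower. Without KO replicate 2, KO replicate 1 or WT replicate 1 the calls over all genes came to 792 higher and 547 lower, 902 and 526, and 954 and 671.

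Of the 9 enzyme genes with a probe set, 8 were tested and Ptgs2 was too dim. Alox5ap rose 10.7-fold, Hpgd fell 1.5-fold, and 6 genes were not called: Alox5, Lta4h, Ltc4s, Ptges, Ptgds and Ptgr1. The 2 of 8 called genes stand beside 18.6% of all genes, and the 4 of 8 whose groups did not overlap beside 40.8%, so the counts do not set the enzymes apart. Of the 12 probe sets past the filter, 3 were called, 1 higher and 2 lower, beside 17.9% of 27022 probe sets tested (10.1% higher and 7.82% lower). The median difference was 0.18 log2 over the 8 genes and -0.05 over all genes. On the poly-A scale Alox5ap was still called higher, beside 377 of 13370 genes. Alox5, Ltc4s, Ptges, Ptgds and Hpgd were called lower there, beside 10120 genes, so these lower calls do not set the enzymes apart. On the hepatocyte scale Alox5ap and Ptges were called higher and Hpgd was not called.

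**Figure D1:**
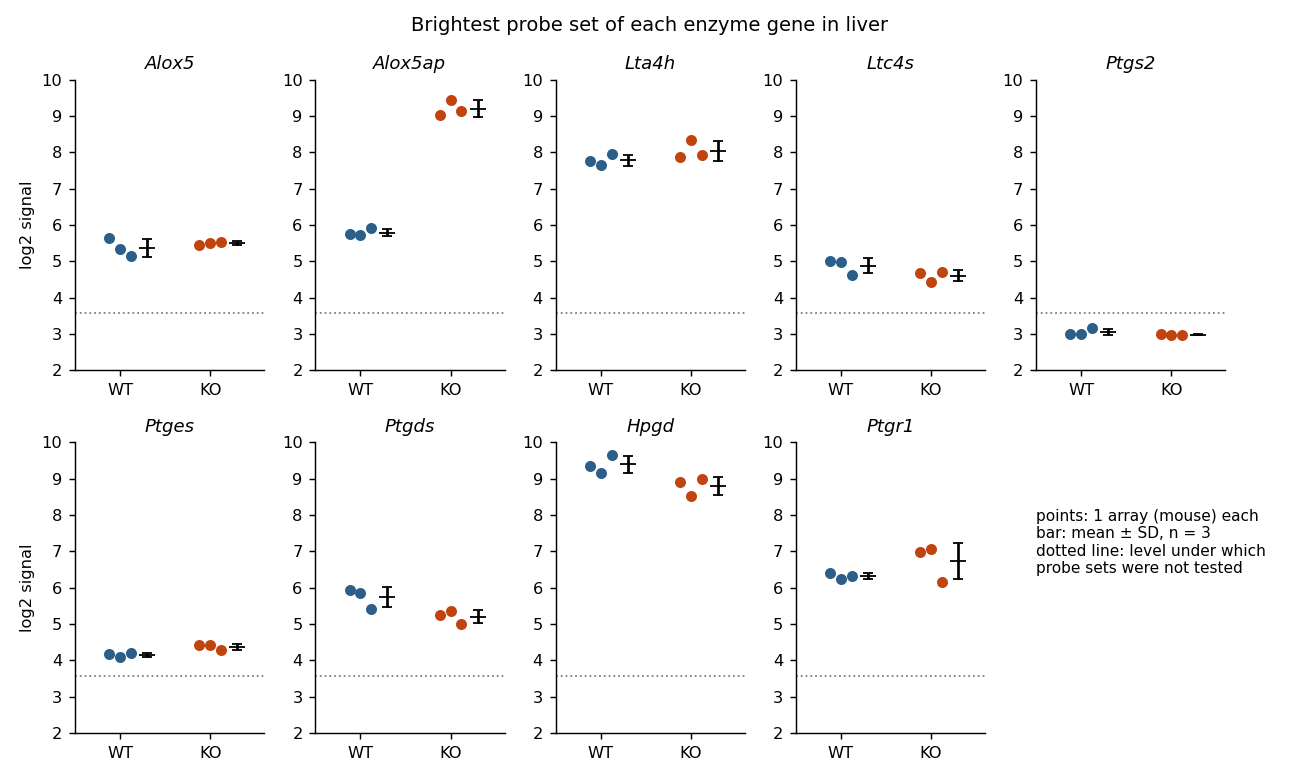
Log2 signal (y axis) of the brightest probe set of each enzyme gene in the 3 WT and 3 KO arrays, 1 point per mouse, with mean ± SD (n = 3) and a dotted line at the filter level of 3.58 log2. The Alox5ap points of the KO arrays lie at 9.02 to 9.45, far above the WT points at 5.72 to 5.91, while the groups of the other genes lie within about 1 log2 of each other.

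Alox5ap, which encodes the protein that presents arachidonate to 5-lipoxygenase, showed the highest difference among the enzymes. It read 9.02, 9.45 and 9.15 log2 in the KO arrays and 5.74, 5.72 and 5.91 in the WT arrays. All KO arrays lay more than 3 log2 above all WT arrays, and neither group had an array that stood away from the rest. The means were 9.21 ± 0.22 (SD, n = 3) in KO and 5.79 ± 0.10 in WT, which puts the difference at 3.42 (SE 0.14, limma adjusted p = 1.79e-05). It stayed between 3.30 and 3.51 when any 1 array was left out, and was 2.67 on the poly-A scale. A single probe set reads this gene, so no other probe set could be set beside it.

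Alox5, the enzyme that works with Alox5ap, was not called. Its only probe set read 5.44, 5.51 and 5.54 log2 in the KO arrays and 5.64, 5.34 and 5.14 in the WT arrays. The KO values lay inside the WT range. The difference was 0.12 (SE 0.14, limma adjusted p = 0.569), with a 95% interval of -0.21 to 0.46. On this array scale the interval's upper bound is thus well under the 3.42 measured for Alox5ap. On the poly-A scale the Alox5 difference was -0.62.

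Lta4h, the hydrolase that forms leukotriene B4, had 3 probe sets that disagreed. The brightest read 7.86, 8.35 and 7.92 log2 in the KO arrays and 7.76, 7.64 and 7.95 in the WT arrays, with overlap between the groups and a difference of 0.25 (SE 0.16, limma adjusted p = 0.293). Its second probe set read 4.88, 4.86 and 5.03 in KO against 5.30, 5.48 and 5.18 in WT. There all KO arrays lay below all WT arrays, by -0.40 (SE 0.13), without passing (limma adjusted p = 0.0626 over probe sets). The third lay under the filter level, at 3.39 ± 0.22 in KO and 3.46 ± 0.07 in WT. With the mean of the tested probe sets the gene's difference was -0.07, so no direction can be given for Lta4h.

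Ltc4s, the synthase of leukotriene C4, read 4.68, 4.42 and 4.72 log2 in the KO arrays and 5.0, 4.98 and 4.63 in the WT arrays. WT replicate 3 lay within the KO range, and the other WT arrays above it. The difference was -0.27 (SE 0.14, limma adjusted p = 0.227), with a 95% interval of -0.60 to 0.07. Of the 4 leukotriene synthesis genes, then, 1 rose, none fell and 3 were not called on the deposited scale. Over all genes 10.5% were called higher and 8.09% lower, and so few members do not set this branch apart. On the poly-A scale Alox5 and Ltc4s were called lower, as were 10120 of all 13370 genes tested.

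The arrays with high Alox5ap were also those with high myeloid transcripts. Of the 13 neutrophil markers tested, 12 rose and none fell, and their summed linear signal was 13775 to 15518 in the KO arrays and 608 to 752 in the WT arrays. The granule and cytosol proteins S100a8, S100a9 and Ngp had the smallest adjusted p and were higher by 5.17, 4.94 and 4.76 log2. Of the 8 monocyte and recruited macrophage markers, 6 rose and none fell, with sums of 571 to 740 in KO and 133 to 202 in WT. Itgam, F13a1 and Gpnmb, with the smallest adjusted p in that list, were higher by 1.57, 3.12 and 3.76 log2. Of the 10 Kupffer cell markers, 2 rose and 4 fell, with sums of 3781 to 4064 in KO and 2382 to 3902 in WT. Marco rose by 3.02, while Vsig4 fell by 2.30 and Clec4f by 2.82. The part of these cells in the Alox5ap difference was not tested. In liver RNA, more cells of a type and more RNA per cell cannot be told apart.

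Most markers of mast cells and basophils, which also make leukotriene C4, were not called. Of their 9 markers, 3 lay under the filter level (Mcpt4, Fcer1a and Ms4a2), 1 of the 6 tested rose and none fell. Hdc, the histidine decarboxylase, rose by 0.45 log2 on the deposited scale and was -0.30 on the poly-A scale. Its call was lost without a filter, with quantile normalization and without any 1 array but WT replicate 1 (limma adjusted p up to 0.119). Cpa3 and Tpsb2 stood at -0.26 and -0.24. The summed signal was 164 to 173 in KO and 145 to 169 in WT. For eosinophils 4 of 5 markers lay under the filter level (Epx, Siglecf, Ccr3 and Il5ra), and Prg2 rose by 1.72, with sums of 54.7 to 60.6 in KO and 31.9 to 33.7 in WT.

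**Figure D2:**
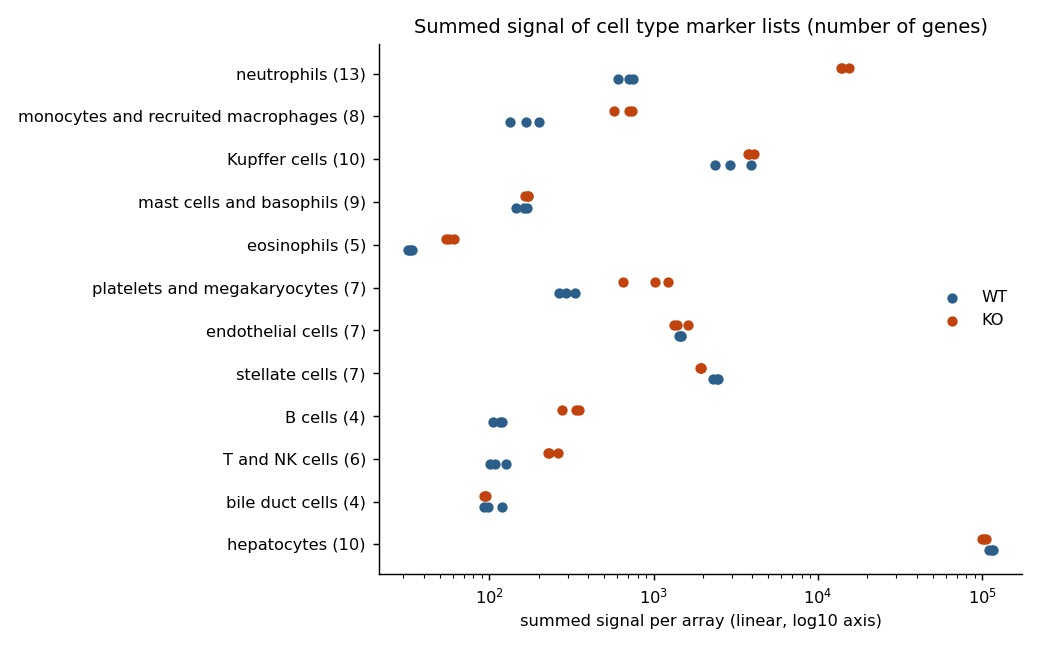
Summed linear signal per array (x axis, log10 scale) of the marker lists of 12 cell types, each gene read by its brightest probe set, with 3 WT and 3 KO points per list and the number of genes in brackets. The neutrophil sums of the KO arrays lie at 13775 to 15518, above the WT sums of 608 to 752, while the hepatocyte sums are 99269 to 105983 in KO and 110297 to 116740 in WT.

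Among the 13369 other genes tested, 561 had a Pearson correlation over 0.95 with Alox5ap across the 6 arrays. The 5 with the highest were Ngp at 0.999, a granule protein of maturing neutrophils, 2410006H16Rik at 0.999, and Nudt21, Slc38a2 and Cdkn2d at 0.998. These correlations describe 6 arrays that fall into 2 genotypes, and much of each is the step between them. The size of that step differed widely, from 4.76 log2 for Ngp to 0.53 for Nudt21.

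Of the prostaglandin enzymes followed here, those tested (Ptges, Ptgds, Hpgd and Ptgr1) showed no rise comparable to that of Alox5ap. The cyclooxygenase step itself was not tested, since Ptgs1 was not analysed and Ptgs2 was too dim. Ptgs2, the inducible cyclooxygenase, lay near the bottom of the scale in every array. Its brighter probe set read 2.98, 2.98 and 2.98 log2 in the KO arrays and 3.01, 3.0 and 3.16 in the WT arrays, and the other 2.36 ± 0.16 in KO and 2.39 ± 0.21 in WT. All 12 values lay under the filter level, so the gene has no main test. Without a filter the brighter probe set differed by -0.08 with a 95% interval of -0.29 to 0.13, which at this signal bounds the array reading and not the transcript. The upstream window of Ptgs2 is shown because this gene's promoter is a textbook target of inflammatory signals. It is taken from RefSeq on GRCm38.p6 (chr1:150099781-150100030, plus strand) and covers the 250 bases before the annotated start. Its single C/EBP-like match (TTGCNNAA on either strand) is in capitals and begins at -69. That position counts from the RefSeq start alone, and other starts were not examined. The other motifs searched, named with the windows further below, had no match in it.
Ptgs2: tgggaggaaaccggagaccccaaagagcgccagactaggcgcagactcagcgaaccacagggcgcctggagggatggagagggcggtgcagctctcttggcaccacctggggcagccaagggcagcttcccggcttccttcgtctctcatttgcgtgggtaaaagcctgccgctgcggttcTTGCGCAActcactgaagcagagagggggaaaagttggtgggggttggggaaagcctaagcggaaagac

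Ptges, the inducible synthase of prostaglandin E2, had 3 probe sets, 2 of them past the filter. The brightest read 4.43, 4.42 and 4.28 log2 in the KO arrays and 4.16, 4.08 and 4.19 in the WT arrays. All KO arrays lay above all WT arrays, by 0.23 (SE 0.10), which did not pass (limma adjusted p = 0.147). The second tested probe set went the other way, at 3.86 ± 0.23 in KO and 4.04 ± 0.12 in WT, and so did the one under the filter, at 3.33 ± 0.06 and 3.55 ± 0.20. The brightest probe set's difference was 0.38 and called on the hepatocyte scale (limma adjusted p = 0.0329). It was -0.52 and called on the poly-A scale, where 10120 of 13370 genes were called lower. The sign for Ptges thus rests on the probe set and the scale.

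Ptgds, the lipocalin-type synthase of prostaglandin D2, was lower in every KO array on both of its probe sets. The brighter read 5.26, 5.35 and 5.0 log2 in the KO arrays and 5.93, 5.85 and 5.42 in the WT arrays. The difference was -0.53 (SE 0.17, limma adjusted p = 0.0608), just outside the threshold, with a 95% interval of -0.92 to -0.15. The other read 3.76, 3.34 and 3.61 in KO and 5.06, 4.56 and 3.77 in WT. There WT replicate 3 lay 0.01 log2 above KO replicate 1, the WT SD was 0.65, and the difference of -0.90 (SE 0.29) did not pass (limma adjusted p = 0.0682 over probe sets). Without WT replicate 3 the brighter probe set's difference was -0.69 and passed (limma adjusted p = 0.0197). It also passed with quantile normalization and with array quality weights, at -0.59 and -0.54. On the poly-A scale, which lowers every difference by 0.75, it was -1.28 and called. On the hepatocyte scale it was -0.38 and not called (limma adjusted p = 0.150). The call for Ptgds thus turns on small choices while its sign does not.

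Hpgd, the dehydrogenase that starts prostaglandin inactivation, fell on both of its probe sets. The brighter read 8.91, 8.53 and 8.99 log2 in the KO arrays and 9.36, 9.17 and 9.65 in the WT arrays. All KO arrays lay below all WT arrays, with KO replicate 2 lowest. The means were 8.81 ± 0.25 (SD, n = 3) and 9.39 ± 0.24, a difference of -0.58 (SE 0.17), or 1.5-fold, just inside the threshold (limma adjusted p = 0.0488). The second probe set read 5.32, 5.36 and 5.68 in KO and 6.12, 6.13 and 6.03 in WT. It fell by 0.64 log2 (SE 0.13, limma adjusted p = 0.0144 over probe sets), with the WT arrays within 0.1 of each other.

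The brighter Hpgd probe set, whose type may pick up transcripts of similar sequence, lost its call when any 1 array but WT replicate 2 was left out. In those 5 fits its difference ran from -0.68 to -0.44, with limma adjusted p-values of 0.0505 to 0.149, and without WT replicate 2 it was -0.70 (limma adjusted p = 0.0439). It was -1.33 and called on the poly-A scale, where 10120 of 13370 genes were called lower. On the hepatocyte scale it was -0.43 and not called (limma adjusted p = 0.114). Hpgd was lower in KO under each of these settings. In the same arrays the summed hepatocyte marker signal was 99269 to 105983 in KO and 110297 to 116740 in WT, and its part in the Hpgd difference was not tested.

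Ptgr1, a reductase that acts after Hpgd on prostaglandins and also inactivates leukotriene B4, varied most among the KO arrays. It read 6.99, 7.07 and 6.16 log2 in KO and 6.40, 6.24 and 6.34 in WT. KO replicates 1 and 2 lay above all WT arrays and KO replicate 3 below them, and the KO SD of 0.50 compares with 0.08 in WT. The difference was 0.42 (SE 0.23, limma adjusted p = 0.234), with a 95% interval of -0.11 to 0.95. Without KO replicate 3 it was 0.71 and passed (limma adjusted p = 0.0123), while on the poly-A scale it was -0.33. Of the 2 inactivating enzymes, then, 1 fell and 1 was not called on the deposited scale, beside 8.09% of all genes called lower.

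The upstream windows of these inactivating enzymes are set side by side, since they encode successive steps of prostaglandin breakdown. Each covers the 250 bases before the start annotated by RefSeq on GRCm38.p6, for Hpgd at chr8:56294302-56294551, plus strand, and for Ptgr1 at chr4:58987079-58987328, minus strand. Capitals mark matches on either strand to 4 short motifs. These were the TATA box, spelled TATAAA, the box bound by nuclear factor Y, spelled CCAAT, a site of the C/EBP kind, spelled TTGCNNAA, and the core of a cyclic AMP response element, spelled TGACG. No overlap between these motifs occurred in the windows printed.
Hpgd: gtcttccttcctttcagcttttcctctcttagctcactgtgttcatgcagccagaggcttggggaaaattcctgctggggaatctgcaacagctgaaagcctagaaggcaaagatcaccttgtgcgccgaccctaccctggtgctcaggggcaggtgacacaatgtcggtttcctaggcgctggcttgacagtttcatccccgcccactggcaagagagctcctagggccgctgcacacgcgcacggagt
Ptgr1: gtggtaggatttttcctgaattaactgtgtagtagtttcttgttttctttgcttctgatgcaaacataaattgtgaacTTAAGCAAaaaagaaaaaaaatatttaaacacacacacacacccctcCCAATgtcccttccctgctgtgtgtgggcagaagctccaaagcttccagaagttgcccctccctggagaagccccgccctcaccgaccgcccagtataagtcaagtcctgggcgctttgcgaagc
The Hpgd window held none of these motifs. That of Ptgr1 held a C/EBP-like match that begins at -172 and a CCAAT match that begins at -125. Of 32851 annotated windows of this length, 12.4% held the TATA motif, 33.85% the CCAAT motif, 9.56% the C/EBP-like motif and 17.8% the response element core. RefSeq windows were found for 9 of the 10 names, all but Alox5ap, and a match describes letters and shows no binding.

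**Figure D3:**
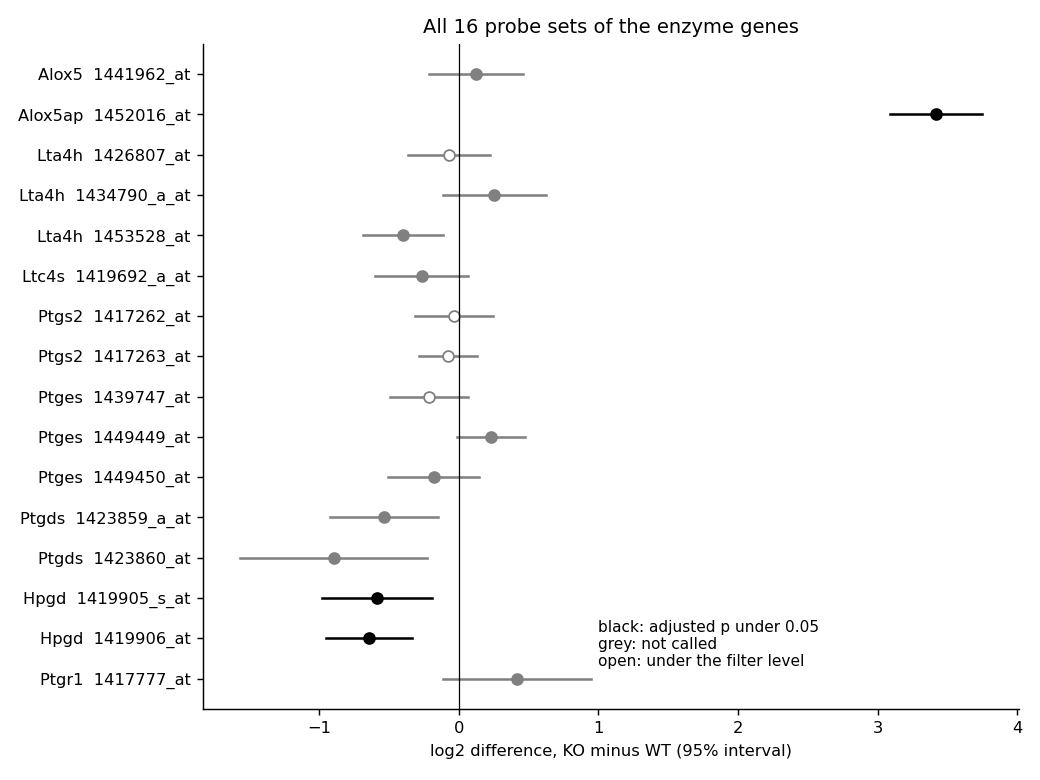
Log2 difference, KO minus WT (x axis), with its 95% limma interval for each of the 16 enzyme probe sets, black where called, grey where not, and open for the 4 under the filter level, whose interval comes from the fit without a filter. The Alox5ap probe set stands at 3.42, the Hpgd probe sets at -0.58 and -0.64 are the only others called, and probe sets of Lta4h and of Ptges lie on both sides of 0.

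The steps around these enzymes were then read from 7 lists with 76 genes, of which 54 were tested. Of these 13 rose, 9 fell and 32 were not called, or 40.7% called beside 18.6% of all genes, with a median difference of 0.00 log2 beside -0.05. The lists were chosen with earlier results of these data known, so the higher share was not tested and is no evidence of enrichment. The same holds for the counts of each list below, beside 10.5% of all genes called higher and 8.09% lower. Of the 13 that rose, 5 were also called higher on the poly-A scale and 4 were lower there. All 9 that fell were called lower there too. That is no added support for them, since this scale lowers every difference by 0.75 log2. When any 1 array was left out, 11 of the 22 calls held in every case.

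In the list for arachidonate release 3 of 14 tested genes rose and 2 fell (median -0.16 log2). The largest rise was that of Pla2g7, whose main substrates are other lipids. It cannot be read as a rise in arachidonate release, which was not measured. Pla2g7, the secreted phospholipase that degrades platelet-activating factor and oxidised phospholipids, read 7.18, 7.50 and 7.24 log2 in KO and 4.80, 4.78 and 5.49 in WT, and rose 4.87-fold (limma adjusted p = 0.000378). Plaat3, a phospholipase of adipose tissue and lysosomes, rose 1.74-fold, and Pla2g4a, the cytosolic phospholipase that feeds leukotriene synthesis, 1.58-fold (limma adjusted p = 0.0212). Pla2g4a read 4.21, 4.21 and 4.46 in KO and 3.52, 3.93 and 3.44 in WT, close to the filter level. It kept its call only without WT replicate 2 among single arrays left out (otherwise limma adjusted p up to 0.0676). On the poly-A scale Plaat3 stood at 0.05 and Pla2g4a at -0.09.

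Both genes that fell in this list, Mgll and Faah, encode hydrolases of endocannabinoids. Mgll, which frees arachidonate from 2-arachidonoylglycerol, read 7.48, 7.68 and 7.13 log2 in KO and 8.71, 8.78 and 8.52 in WT, a fall of 2.36-fold (limma adjusted p = 0.00194), and 2 of its 3 other tested probe sets fell as well. Faah, which hydrolyses anandamide, fell 1.95-fold (limma adjusted p = 0.00178), from 8.51 to 8.63 in WT to 7.47 to 7.80 in KO. Abhd6, a further hydrolase of these lipids, was at -0.63 (SE 0.24) and did not pass. With the mean of a gene's tested probe sets Pla2g6, a calcium-independent phospholipase, was also called lower, at -0.37, where its brightest probe set stood at -0.17 and was not called. Of the 8 genes that make arachidonate or return it to phospholipids, 1 fell and none rose. It was Mboat7, which places arachidonate in phosphatidylinositol, at -0.53 (SE 0.13). Its call held without KO replicate 2 and was lost without any other single array (limma adjusted p up to 0.0916). Acsl4, which activates arachidonate as its coenzyme A ester, read 8.06, 7.50 and 8.17 log2 in KO and 6.45, 7.09 and 7.50 in WT, at 0.90 (SE 0.28, limma adjusted p = 0.0612). It was called higher without WT replicate 3 (1.14), on the hepatocyte scale and with array weights, and 1 of its 2 other tested probe sets rose, by 0.76 log2, while the other stood at 0.02.

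Of the 6 other lipoxygenases, Alox15, Alox8 and Alox12b lay under the filter level and 3 were tested. Aloxe3, an epidermal lipoxygenase, was lower in all KO arrays, at 4.80 ± 0.12 log2 against 5.13 ± 0.08 in WT, and was not called (-0.33, limma adjusted p = 0.0803). Alox12, the platelet enzyme, read 4.92, 4.76 and 4.27 log2 in KO and 4.02, 4.20 and 3.79 in WT and rose 1.57-fold, while Alox12e fell by 0.39. Alox12 kept its call only without KO replicate 3 (otherwise limma adjusted p up to 0.143) and Alox12e only without WT replicate 3 (otherwise up to 0.114), and Alox12 was at -0.10 on the poly-A scale. Of 7 platelet markers, Pf4 and Ppbp rose by 2.65 and 3.73 log2 and 5 were not called, with sums of 651 to 1222 in KO and 267 to 332 in WT. Those 5 ran from -0.24 for Gp1bb to 0.42 for Itga2b, and Gp1bb was at 0.99 and called higher with the mean of its tested probe sets.

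Genes that convert, export or degrade leukotrienes changed in both directions, with 4 of 10 tested genes risen and 3 fallen (median 0.16 log2). Cyp4f18, the enzyme by which mouse neutrophils hydroxylate leukotriene B4, read 5.48, 5.91 and 5.56 log2 in KO and 3.75, 3.64 and 3.83 in WT, and rose 3.76-fold (limma adjusted p = 0.000151). Cyp4f14, a leukotriene and fatty acid hydroxylase of hepatocytes, went the other way, from 10.19, 9.98 and 9.69 in WT to 6.46, 6.77 and 6.33 in KO, 10.8-fold lower. Abcc1, which exports leukotriene C4, rose 2.16-fold as deposited and was at 0.36, not called, on the poly-A scale. These calls of Cyp4f18, Cyp4f14 and Abcc1 held without any 1 array.

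Smaller changes in this list were less firm. Mgst2, a microsomal enzyme able to make leukotriene C4, rose by 0.84 log2 (SE 0.19) from 3.94 in WT, and its relative Mgst3 fell by 0.69 (SE 0.16). Cyp4f13 fell by 0.58 and Cyp4f16 rose by 0.66, the latter being at -0.09 on the poly-A scale, where Mgst2 was at 0.09 and not called. Mgst2 lost its call without KO replicate 1 or 2 or WT replicate 1 or 3 (limma adjusted p up to 0.072), and Mgst3 without KO replicate 1 or 2 or WT replicate 1 (up to 0.0781). Cyp4f13 lost it without KO replicate 1 or WT replicate 2 (limma adjusted p up to 0.0598), and Cyp4f16 without KO replicate 1 or 2 or WT replicate 1 or 2 (up to 0.106).

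Of the other prostanoid synthases, 1 of 5 tested genes fell and none rose (median -0.05 log2). It was Prxl2b, a synthase of prostaglandin F2alpha, which read 6.35, 6.74 and 5.82 log2 in KO and 7.80, 7.92 and 6.95 in WT and fell by 1.26 (SE 0.30, limma adjusted p = 0.0254). WT replicate 3 was nearly 1 log2 below the other WT arrays, and the call was lost without KO replicate 1 or 3 or WT replicate 1 or 2 (limma adjusted p up to 0.0814). Tbxas1, the thromboxane synthase of platelets and macrophages, differed by 0.10 (SE 0.15), and Ptgis, the prostacyclin synthase, by -0.05 (SE 0.11). Hpgds, the haematopoietic prostaglandin D2 synthase, lay under the filter level at 3.48 ± 0.19 in KO and 3.28 ± 0.04 in WT.

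In the list for prostaglandin transport and breakdown 2 of 5 tested genes rose and 1 fell (median 0.20 log2). Akr1c6 and Akr1c18, related reductases of steroids and prostaglandins, changed in opposite directions. As they also act on steroids, their calls are not specific to prostaglandin breakdown. Akr1c6 fell 2.41-fold, from 12.54, 12.79 and 12.58 in WT to 11.16, 11.48 and 11.48 in KO, and Akr1c18 rose 3.28-fold, from 6.43, 5.60 and 6.61 to 8.04, 8.09 and 7.65 (limma adjusted p = 0.000557 and 0.00399). Abcc4, an exporter of prostaglandin E2, rose by 0.65 (SE 0.17) as deposited, was at -0.10 on the poly-A scale, and lost its call without any 1 array but WT replicate 3 (limma adjusted p up to 0.109). Slco2a1, the prostaglandin uptake carrier, differed by 0.20 (SE 0.13), or -0.065 with the mean of its tested probe sets, and was not called in either case. Ptgr2, a further reductase of prostaglandins, was not called on its brightest probe set at -0.17 (SE 0.14), while another of its probe sets fell by 1.08 log2 (limma adjusted p = 0.00153 over probe sets). With the mean of its tested probe sets Ptgr2 was called lower, at -0.42, so 2 genes of this list then fell.

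Among receptors 3 of 9 tested genes rose, beside 10.5% of all genes, and none fell (median 0.13 log2), while 6 lay under the filter level. Fpr2, a receptor of neutrophils and monocytes for formyl peptides and lipoxins, read 7.66, 7.95 and 8.16 log2 in KO and 5.16, 5.60 and 4.45 in WT, and rose 7.26-fold. Ptger4, a receptor of prostaglandin E2, read 5.17, 5.53 and 4.65 in KO and 3.68, 3.73 and 3.63 in WT, and rose 2.71-fold (limma adjusted p = 0.00285). Ltb4r1, the high-affinity receptor of leukotriene B4, read 4.95, 4.57 and 4.69 in KO and 3.94, 4.18 and 3.53 in WT, and rose 1.81-fold (limma adjusted p = 0.0155). Ltb4r1 lost its call without KO replicate 1 (limma adjusted p = 0.0616) and was at 0.10, not called, on the poly-A scale. Cysltr1, a receptor of cysteinyl leukotrienes, differed by 0.13 (SE 0.13), and Cysltr2 lay under the filter level. These rises came in the arrays whose neutrophil marker sum was 13775 to 15518 against 608 to 752 in WT. Marker sums were also higher in every KO array for monocytes and recruited macrophages (571 to 740 against 133 to 202), B cells (276 to 352 against 105 to 119) and T and NK cells (228 to 262 against 101 to 126). The part of these cells was not tested.

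**Figure D4:**
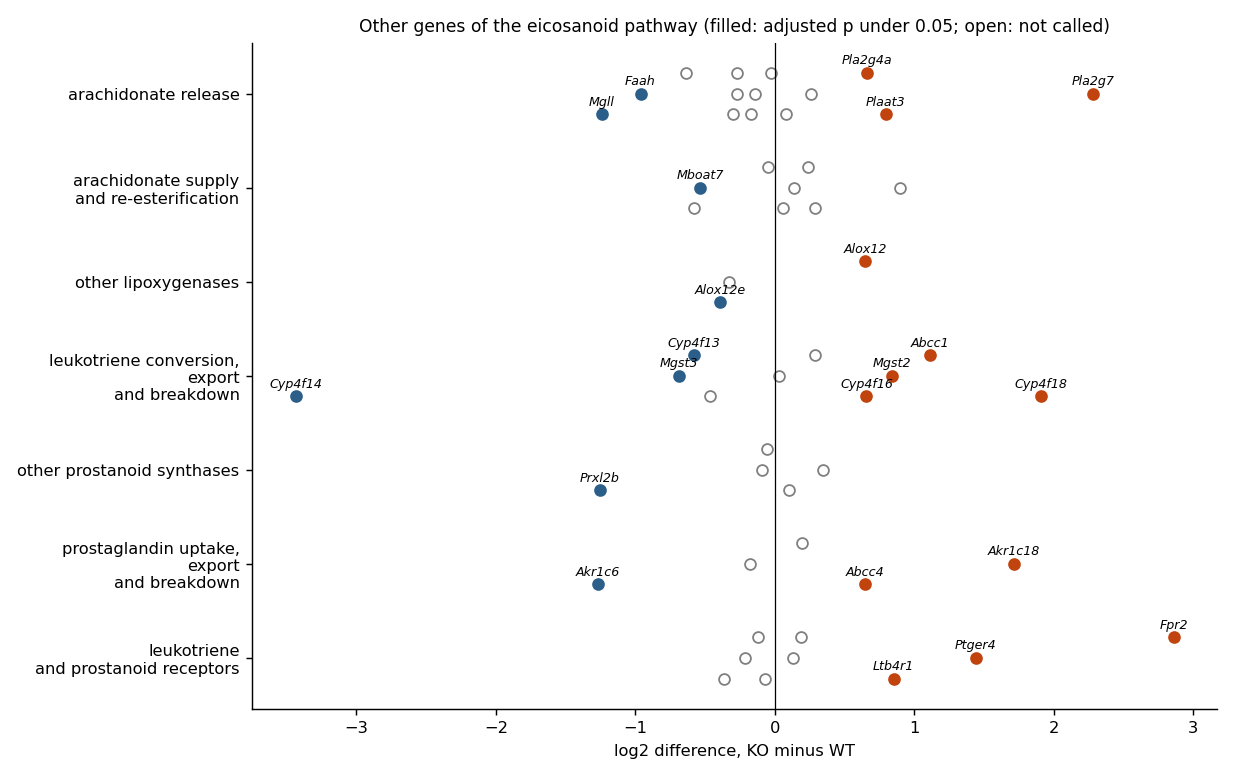
Log2 difference, KO minus WT (x axis), of the 54 tested genes in 7 lists around the enzymes, 1 point per gene, filled orange where called higher, filled blue where called lower and open where not called. Called genes lie on both sides of 0 in the lists for arachidonate release, other lipoxygenases, leukotriene handling, and prostaglandin transport and breakdown. In these lists they run from -3.43 for Cyp4f14 to 2.28 for Pla2g7, and the 3 called receptors lie at 0.85 to 2.86.

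**Figure D5:**
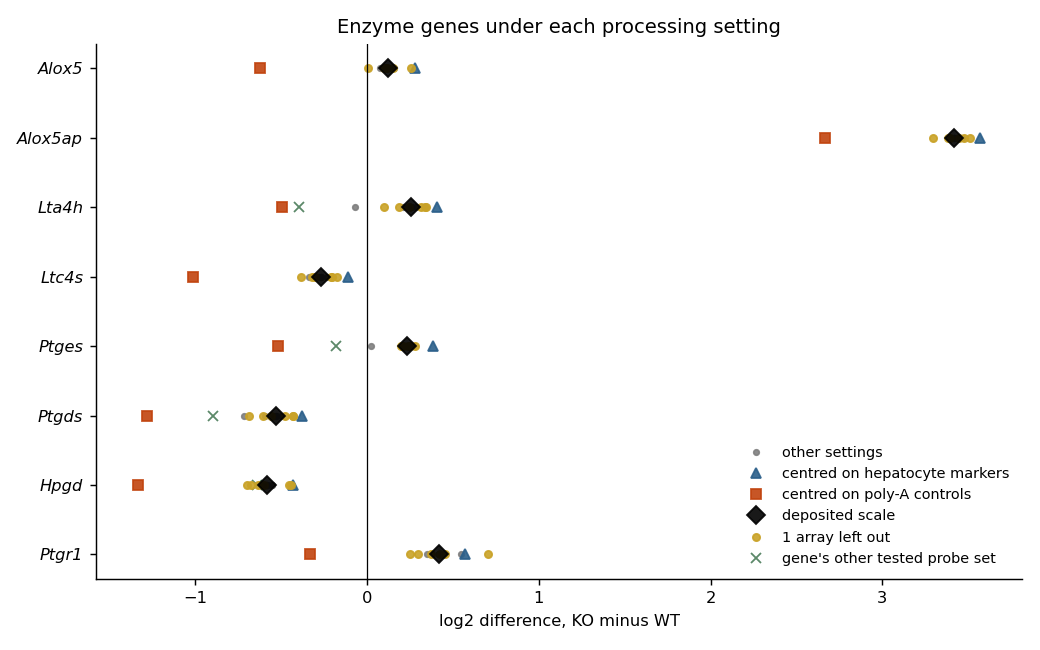
Log2 difference, KO minus WT (x axis), of the 8 tested enzyme genes on the deposited scale, under each other setting, with each array left out, and for a gene's other tested probe set. Alox5ap lies between 2.67 and 3.57 in all, while centring on poly-A controls moves every gene to the left, to -0.62 for Alox5 and -1.33 for Hpgd.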

How the data were processed

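RNA was extracted with TRIzol from the livers of 3 KO and 3 WT mice and labelled for Affymetrix arrays, per the labels' protocols. The deposited values are log2 signals, 1 per probe set and array. Their range shows the log2 scale. The tool named is MAS5, per the submitters' processing notes. The sources used here do not give the steps of background correction and probe summary. A summary with background left in understates folds of dim genes. KO was set against WT in limma 3.58.1 under R 4.3.3 (lmFit, then eBayes with a trend on intensity; two-sided; Benjamini-Hochberg adjustment), without covariates or further normalization. Of 45101 probe sets, 64 array controls and all those dimmer than the 40th percentile (3.58 log2) were dropped, which left 27022 probe sets and, by brightest probe set, 13370 genes. Gene names came from the platform annotation, with 34741 of 34945 single-symbol probe sets matched by gene identifier to GRCm38.p6. The fit was tested on simulated data, where 4.24% of calls were false. Only 200 of 13370 genes were given a difference there. It called 15.3% of differences of 0.5 log2, 69.1% of those of 1 log2 and 95.6% of those of 2 log2. In the data 2482 genes were called, which makes the adjusted threshold less strict. The simulated shares, of false calls and of differences found, therefore need not hold for these arrays. A gene not called may still differ by 0.5 log2.

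Members and lists were chosen with earlier results of these data known, so counts and medians of lists are given without a test. Named are every enzyme probe set, Sgpl1, called genes of the pathway lists, up to 3 per cell marker list, and the 5 genes most like Alox5ap. These others were picked with their values in view: Abhd6, Tbxas1, Ptgis, Hpgds, Slco2a1, Cysltr1, Cysltr2, Acsl4, Aloxe3, Pla2g6, Ptgr2, Gp1bb, Itga2b, Alb and Cotl1. In the lists for endothelial, stellate, B, T and NK, bile duct and hepatocyte markers, 1, 1, 3, 3, 0 and 0 genes rose and 1, 2, 0, 0, 0 and 2 fell. Settings tried were other filters, normalizations, centrings, variance priors, array weights, averaged probe sets of a gene, other probe sets and leaving out each array. Replicate numbers only name animals.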

Additional observations from a re-analysis of the deposited data

How the results depend on the processing

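Alox5ap was called higher in every setting tried. The count of enzyme genes that rose, 1 as reported, was 2 with arrays centred on hepatocyte markers and 1 to 2 with 1 array left out. The count that fell, also 1, was 0 without a filter, with median centring, without an intensity trend and on the hepatocyte scale, 2 with quantile normalization and with array quality weights, 5 on the poly-A scale, and 0 to 1 with 1 array left out. The 3 probe sets called became 10 on the poly-A scale, 6 with array weights and 1 to 4 with 1 array left out. Signs turned for Alox5 (-0.62), Lta4h (-0.49), Ptges (-0.52) and Ptgr1 (-0.33) on the poly-A scale, for Lta4h with the mean of its tested probe sets (-0.071) and on its second probe set (-0.40), and for Ptges on its second (-0.18). The poly-A values follow from the lower scale by construction; the other causes were not tested. No paired analysis was possible because the labels number the animals without shared replicate numbers. Signal near background limits Ptgs2, Ptges and the weaker lipoxygenases and receptors.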

Other observations

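Cotl1 encodes coactosin-like protein, which binds 5-lipoxygenase. Its brightest probe set read 8.38, 8.30 and 8.47 log2 in the KO arrays and 8.19, 8.14 and 7.94 in the WT arrays, a difference of 0.29 (SE 0.12) that did not pass (limma adjusted p = 0.118). Its 5 other tested probe sets, all of a kind that can read other transcripts, all rose, by 0.65 to 1.94 log2, with limma adjusted p-values over probe sets of 0.0333 or lower. On the deposited scale the gene is therefore not called by its brightest probe set and is called with the mean of its probe sets, at 1.12 log2. On the hepatocyte scale the brightest probe set stood at 0.45 and was called (limma adjusted p = 0.0454), and on the poly-A scale at -0.46 and was not.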
